A study of Homo sapiens with 24 samples.

Results

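The response of MOLM14 cells to metformin was described from 6 of the 24 arrays of the series, namely every array labelled with this cell line. MOLM14 is an established human acute myeloid leukaemia line of monocytic type that carries a KMT2A fusion and an internal tandem duplication of the receptor gene FLT3. Of the 6 arrays, 3 came from cells incubated with 10 mM metformin for 24 h (Met) and 3 from untreated cells (Ctrl), lettered A to C in each group. The other 18 arrays held the same treatment pair in HL60, KG1a and U937, with 3 arrays a group at the same dose and time. The labels give MOLM14 and KG1a a high state of oxidative phosphorylation (OXPHOS) as cell lines and place their metformin-treated cells with the low OXPHOS arrays, and the stated aim of the series was a gene signature of high OXPHOS function. The labels do not say whether replicate arrays were separate cultures, and the p-values below measure only the spread between these arrays, which may be technical.

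Metformin is a biguanide that inhibits complex I, the entry point of electrons from NADH into the mitochondrial respiratory chain. Cells with a blocked chain make less aspartate and other amino acids and sense the shortage through the integrated stress response, in which the factor ATF4 switches on genes of amino acid synthesis, aminoacyl-tRNA synthetases and inhibitors of mTORC1. Low ATP activates AMPK, which restrains sterol and fatty acid synthesis, and a faster glycolytic flux lowers the sugar intermediates that keep TXNIP and ARRDC4 transcribed.

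Values are the deposited log2 array values, a change is the mean of Met minus the mean of Ctrl on that scale with its standard error (SE), and adjusted p-values come from limma with Benjamini-Hochberg adjustment over all 10641 genes tested. A gene was tested where at least 1 of the 8 group means reached 4.02, the median of all rows, and it was called at an adjusted p under 0.05. Array values near that floor have an unknown share of background, which compresses changes of weakly detected genes. Marker levels matched the line's label in part. FLT3 averaged 10.51 in Met and 10.38 in Ctrl, against 3.64 in untreated HL60. The KMT2A fusion markers MEIS1, PBX3 and MEF2C had means from 6.96 to 8.34 in Met and from 6.80 to 8.23 in Ctrl. In untreated cells of the other lines they reached 6.53 (MEIS1 in U937), 6.60 (PBX3 in KG1a) and 7.60 (MEF2C in KG1a). The monocyte genes LYZ (9.75 in Met, 9.88 in Ctrl) and CD68 (9.65 in Met, 9.73 in Ctrl) were high, while the monocyte receptor gene CD14 lay below the filter (3.44 in Met, 3.62 in Ctrl). In Ctrl the monocyte markers S100A8 (6.15), CSF1R (5.99), S100A9 (4.84), CD86 (4.39) and FCN1 (4.37) were lower than LYZ. The granulocyte markers PRTN3 (12.26), CTSG (11.25) and AZU1 (10.10) were higher than LYZ. The other granulocyte markers measured were lower than LYZ, namely MPO (8.93), CSF3R (6.08), CAMP (4.67), EPX (4.02), MMP8 (3.41), LTF (3.11) and CEACAM8 (2.89). Of these, MMP8, LTF and CEACAM8 lay under the floor and EPX just under it. HOXA9, ELANE, ITGAM and CEBPA are not analysed here.

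Metformin changed the level of 538 genes in MOLM14, 5.06% of those tested, of which 264 were higher (2.48%) and 274 lower (2.57%) in Met. Most changes were small: 91 genes passed 1.5-fold, 46 of them higher and 45 lower, and 13 passed 2-fold, 5 of them higher and 8 lower. The 5 genes that rose by at least 2-fold were ULBP1, CTH, KDM7A, IL31RA and ATF5, and the 8 that fell by as much were TXNIP, VNN1, MPO, MNDA, INSIG1, MYBPH, TMEM45A and ANXA1. The values of the 3 Met and 3 Ctrl arrays did not overlap in 533 of the 538 genes. The genes were called on these same arrays, so this count is no separate support for the calls. Pairs of MOLM14 arrays of 1 group correlated at 0.9936 to 0.9957 over the tested genes and a Met with a Ctrl array at 0.9900 to 0.9928. The middle range of all rows spanned 2.24, 2.18 and 2.24 in the Met arrays and 2.11, 2.14 and 2.25 in the Ctrl arrays, so Ctrl A and B were slightly narrower than the rest, and the part of this in the calls was not tested. The median change of all tested genes was 0.00 and the median SE 0.11, a precision limited by the 3 arrays a group.

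**Figure D1:**
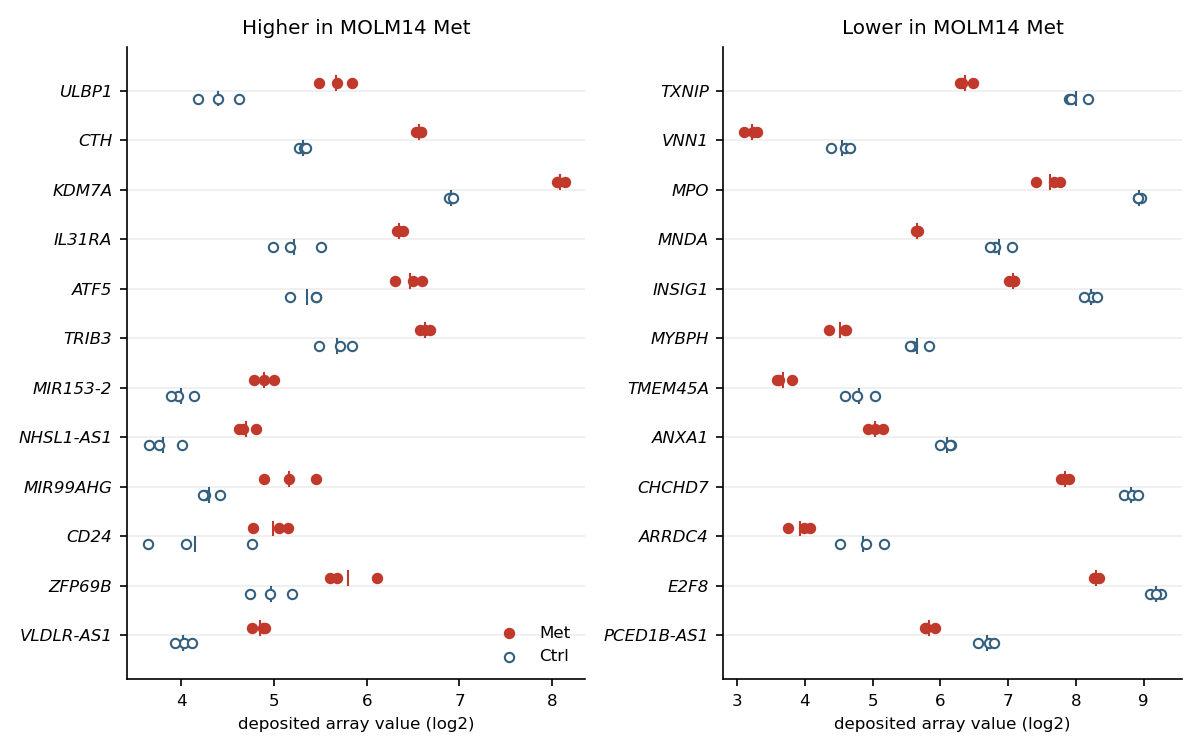
Deposited log2 values (horizontal axis) of the 12 genes with the largest rise (left) and the 12 with the largest fall (right) in MOLM14, with 1 point per array, Met filled and above, Ctrl open and below, and a bar at each mean. The genes were picked from these same arrays, so the gap between Met and Ctrl points in all 24 is no separate finding. The gap is smallest in CD24.

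The amino acid branch of the stress response rose. Among the listed transcription factors and feedback genes of the ATF4 response, 4 of 6 tested members rose and 0 fell, and among its stress and mTORC1 effectors 7 of 11 rose and 0 fell, against 2.48% of all genes. The median changes of these lists were 0.57 and 0.68. The gene lists used here and below were chosen with earlier results of these data known. Their counts are therefore no separate support for a response. ATF5, a factor of the same bZIP family as ATF4, had 6.50, 6.30 and 6.60 in Met, against 5.17, 5.45 and 5.45 in Ctrl. It rose by 1.11 ± 0.12 (SE, n = 3 arrays a group, limma adjusted p = 9.7e-07). TRIB3, a pseudokinase that feeds back on ATF4, had 6.63, 6.68 and 6.57 in Met, against 5.72, 5.49 and 5.84 in Ctrl, a rise of 0.94 ± 0.09. DDIT3, which encodes CHOP, had 5.75, 5.72 and 5.71 in Met, against 4.95, 5.12 and 5.08 in Ctrl, and its gene overlaps MARS1 in RefSeq. In each of these genes the lowest Met array stood above the highest Ctrl array. The bZIP repressor gene JDP2 rose by 0.46 ± 0.10, and ATF4 itself, which is controlled mainly through translation, had a change of 0.04 ± 0.10 (adjusted p = 0.89).

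The effector list held the largest rise. ULBP1, a surface ligand of the natural killer cell receptor NKG2D and a known ATF4 target, had 5.68, 5.48 and 5.84 in Met, against 4.18, 4.39 and 4.63 in Ctrl. This was the largest rise among the named genes, 1.27 ± 0.19 (adjusted p = 0.00014). KDM7A, a histone demethylase, had 8.13, 8.06 and 8.05 in Met, against 6.92, 6.89 and 6.93 in Ctrl, with under 0.1 between arrays of a group. Of the inhibitors of mTORC1, DDIT4 had 8.31, 8.25 and 8.39 in Met, against 7.62, 7.55 and 7.59 in Ctrl, and SESN2 rose by 0.71 ± 0.12. The angiogenic factor gene VEGFA rose by 0.69 ± 0.10, the secreted glycoprotein gene STC2 by 0.68 ± 0.11 and the lipoprotein receptor gene VLDLR by 0.38 ± 0.08. CHAC1 is not analysed here.

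Among enzymes of amino acid synthesis 3 of 11 tested members rose and 1 fell, with a median change of 0.28. CTH, which makes cysteine from cystathionine, had 6.58, 6.58 and 6.53 in Met, against 5.26, 5.32 and 5.34 in Ctrl, a rise of 1.26 ± 0.13 (adjusted p = 7.4e-07). PSAT1, the aminotransferase of serine synthesis, had 11.27, 11.29 and 11.30 in Met, against 10.60, 10.55 and 10.63 in Ctrl, and rose by 0.70 ± 0.07. Asparagine synthetase (ASNS) had 7.85, 7.93 and 7.88 in Met, against 7.19, 7.29 and 7.29 in Ctrl, a rise of 0.63 ± 0.08. The groups stood well apart in all 3 enzymes. Glutamine synthetase (GLUL) fell by 0.29 ± 0.08 (adjusted p = 0.044), a call lost without any 1 of the 6 arrays. PHGDH, the first enzyme of serine synthesis, had a change of 0.15 ± 0.08 (adjusted p = 0.32).

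Of 18 tested cytosolic aminoacyl-tRNA synthetases, which load tRNAs with amino acids, 5 rose and 0 fell. SARS1 for serine had 7.93, 7.92 and 7.97 in Met, against 7.25, 7.09 and 7.33 in Ctrl, and rose by 0.72 ± 0.12. WARS1 for tryptophan rose by 0.44 ± 0.07, AARS1 for alanine by 0.40 ± 0.07, MARS1 for methionine by 0.36 ± 0.08 and IARS1 for isoleucine by 0.30 ± 0.07. Without Ctrl array A, 3 of the 18 rose. Of 8 tested one-carbon enzymes, the mitochondrial MTHFD1L rose by 0.41 ± 0.09 and thymidylate synthase (TYMS), also an S-phase gene, fell by 0.41 ± 0.07. Amino acid transporters are not analysed here.

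ATF4 binds, with CEBP partners, an element of the letters TGATGNAA. The 250 bases before each annotated start were searched for it on both strands in RefSeq promoters of GRCh38.p14, where 3.14% of all 35116 windows and 1.77% of the 11365 windows of tested genes held it. Of the 308 windows of genes that were higher in Met, 4.22% held it, and of the 313 windows of genes that were lower, 0.958%. The windows of 5 risen genes of the lists above held it, and these stretches are shown with the matched letters in capitals, each in the direction of the gene. A match describes the letters and does not show binding.
ASNS (chr7:97872443-97872502, minus strand, 68 to 61 bases before the start): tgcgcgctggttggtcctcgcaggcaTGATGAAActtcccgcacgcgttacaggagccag
AARS1 (chr16:70289660-70289719, minus strand, 187 to 180 bases before the start): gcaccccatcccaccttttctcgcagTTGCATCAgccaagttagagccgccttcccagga
IARS1 (chr9:92293698-92293736, minus strand, 13 to 6 bases before the start): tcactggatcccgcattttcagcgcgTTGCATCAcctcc
MTHFD1L (chr6:150866331-150866390, plus strand, 90 to 83 bases before 1 annotated start): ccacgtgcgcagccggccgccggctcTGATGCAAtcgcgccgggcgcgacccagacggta
JDP2 (chr14:75427980-75428021, plus strand, 16 to 9 bases before 1 annotated start): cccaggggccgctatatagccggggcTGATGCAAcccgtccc

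Most tested genes of sterol synthesis fell. Of 15 tested enzymes that build cholesterol from acetyl-CoA, 10 fell and 0 rose, against 2.57% of all genes, 0 of the 15 had a positive change, and the median change was -0.38. HMGCS1, which condenses the first committed intermediate, had 6.22, 6.23 and 5.94 in Met, against 6.66, 6.57 and 6.81 in Ctrl, and fell by 0.54 ± 0.10 (adjusted p = 0.0019). ACAT2 at the head of the pathway fell by 0.56 ± 0.11 and HSD17B7 near its end by 0.66 ± 0.13. MSMO1 fell by 0.52 ± 0.11, DHCR7 by 0.45 ± 0.09, IDI1 by 0.45 ± 0.11, MVK by 0.44 ± 0.10 and the squalene epoxidase gene SQLE by 0.38 ± 0.08. Without Met array C, 6 of the 15 fell.

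INSIG1, a sterol-regulated anchor that holds the factor SREBP in the endoplasmic reticulum, had 7.01, 7.09 and 7.09 in Met, against 8.24, 8.31 and 8.12 in Ctrl. Its fall of 1.16 ± 0.09 (adjusted p = 1.6e-08) was the only call among 8 tested genes of sterol sensing and uptake. The SREBP genes themselves were not called, with SREBF1 at -0.30 ± 0.11 (adjusted p = 0.13) and SREBF2 at -0.09 ± 0.08 (adjusted p = 0.65). Of 12 genes of fatty acid synthesis 4 fell and 0 rose. Fatty acid synthase (FASN) had 7.68, 7.67 and 7.64 in Met, against 8.16, 8.20 and 8.24 in Ctrl, and the desaturase gene FADS1 had 5.46, 5.37 and 5.32 in Met, against 5.97, 6.42 and 6.19 in Ctrl. SCD fell by 0.48 ± 0.08 and FADS2, which overlaps FADS1, by 0.46 ± 0.09. In all 4 the groups were apart. Among genes of fatty acid uptake and oxidation, the scavenger receptor gene CD36 fell by 0.55 ± 0.09 and the activating enzyme gene ACSL1 rose by 0.44 ± 0.09, and 7 others were not called.

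SREBP binds a sterol element for which the letters TCACNCCA were searched in the same windows. They stood in 3.20% of all windows, in 2.90% of those of tested genes, and in 2 of the 12 windows of fallen sterol enzymes, those of MSMO1 and MVK.
MSMO1 (chr4:165327487-165327546, plus strand, 156 to 149 bases before the start): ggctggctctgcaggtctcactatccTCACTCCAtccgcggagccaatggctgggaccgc
MVK (chr12:109573573-109573632, plus strand, 195 to 188 bases before the start): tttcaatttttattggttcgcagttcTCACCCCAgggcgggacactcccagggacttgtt

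TXNIP had the largest fall of all genes tested. This arrestin-like protein limits glucose uptake and binds thioredoxin, and its gene had 6.32, 6.47 and 6.28 in Met, against 7.90, 7.92 and 8.18 in Ctrl, a fall of 1.64 ± 0.12 (adjusted p = 3.5e-09). The other called member of the 7 arrestin and MLX factor genes tested was its relative ARRDC4, with 3.98, 4.07 and 3.75 in Met, against 5.17, 4.52 and 4.90 in Ctrl. ARRDC4 fell by 0.93 ± 0.15, and 2 of its Met arrays lay under the floor. MLX factors recognise paired E-boxes. The letters CACGTG of a single E-box stood in 6.35% of all windows and 8.26% of those of tested genes. They stood once, and not as a pair, in the window of ARRDC4, and did not occur in that of TXNIP.
ARRDC4 (chr15:97960467-97960524, plus strand, 210 to 205 bases before the start): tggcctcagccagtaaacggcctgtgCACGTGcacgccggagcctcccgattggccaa

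Calls among genes of energy metabolism are read against the 5.06% called of all genes. Of 9 tested genes of glycolysis and glucose transport, 14 of the tricarboxylic acid cycle and pyruvate entry, and 10 mitochondrial stress chaperones and proteases, 0 were called by limma, and 2, 2 and 1 of them reached an unadjusted p under 0.05. Hexokinase 2 (HK2) had a change of 0.13 ± 0.10, lactate dehydrogenase A (LDHA) of -0.14 ± 0.12 and citrate synthase (CS) of -0.01 ± 0.11. PGAM1 had a change of -0.37 ± 0.13 (adjusted p = 0.098), with 8.25, 8.17 and 8.39 in Met and 8.99, 8.62 and 8.32 in Ctrl, so its arrays overlapped. Of 18 genes of respiratory complexes II to IV, UQCRC2, a core subunit of complex III, rose by 0.30 ± 0.08 (adjusted p = 0.018) and 0 fell. This call was lost in the fit on the 6 MOLM14 arrays and without Ctrl array A, Met array A or Met array C. In the pentose phosphate pathway H6PD rose by 0.56 ± 0.13, a call lost without any 1 of 4 of the 6 arrays, and 6 others were not called. Complex I and ATP synthase subunits are not analysed here. The mitophagy receptor genes BNIP3 (-0.57 ± 0.10) and BNIP3L (-0.52 ± 0.10) fell, and the lysosomal GTPase gene RRAGD rose by 0.50 ± 0.10.

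Proliferation genes fell by small amounts and in number. Among 25 tested genes that act in DNA replication or S phase, 13 fell and 0 rose, with a median change of -0.30 and 0 of the 25 above 0. E2F8, an atypical E2F repressor that peaks in S phase, had 8.28, 8.34 and 8.27 in Met, against 9.26, 9.10 and 9.18 in Ctrl, and fell by 0.89 ± 0.09. GINS2, a subunit of the replicative helicase, had 7.40, 7.11 and 7.25 in Met, against 7.94, 7.98 and 8.05 in Ctrl, and fell by 0.73 ± 0.10. CDC6, UHRF1, E2F1, FEN1, PCNA and MCM2 fell by 0.47, 0.45, 0.47, 0.42, 0.38 and 0.33. Of nucleotide enzymes, the ribonucleotide reductase subunit gene RRM2 had 7.43, 7.53 and 7.60 in Met, against 8.13, 8.18 and 8.17 in Ctrl, and 3 of 22 fell in all. Without Met array B, 8 of the 25 replication genes fell. At an unadjusted p under 0.05, 22 of the 25 fell.

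Of 47 tested genes of mitosis and G2/M 22 fell and 0 rose, with a median change of -0.30. The kinesin genes KIF20A (-0.69 ± 0.11) and KIF4A (-0.62 ± 0.11) fell most, and the mitotic kinase gene PLK1 had 9.68, 9.59 and 9.55 in Met, against 10.09, 10.06 and 10.08 in Ctrl. CCNB1, MKI67 and AURKB fell by 0.39, 0.37 and 0.30. The number of fallen members depended on single arrays and on scaling: it was 10 without Met array B, 12 without Ctrl array A, 13 without Met array C, 14 without Ctrl array B and 14 with each array centred on its median. Among 16 regulators of G1, the cyclin genes CCND3 (-0.36 ± 0.09) and, in the replication list, CCNE1 (-0.34 ± 0.08) fell, MXD4 fell by 0.36 ± 0.09 (calls lost without any 1 of 4, 3 and 3 of the 6 arrays), and MYC rose by 0.29 ± 0.08 (adjusted p = 0.046), a call lost without any 1 of 5 of the 6 arrays. CDKN1A is not analysed here. At an unadjusted p under 0.05, 39 of the 47 mitosis genes fell and 0 rose, as 0 did of the sterol, fatty acid synthesis, replication, granule and chaperone lists, and 0 members of the ATF4 and synthetase lists fell.

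Mitotic genes are repressed in quiescent cells through an element called CHR, whose letters TTTGAA stood in 13.3% of all windows and 9.95% of those of tested genes. They stood in 10 of the 26 windows of fallen mitotic genes. In 8 of these 10 genes a match lay in the last 60 bases before the start, and 6 of them are shown over those 60 bases, with the matches on either strand in capitals.
PLK1 (chr16:23678829-23678888, plus strand): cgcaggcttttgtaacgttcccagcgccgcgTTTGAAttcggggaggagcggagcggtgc
CCNB2 (chr15:59105086-59105145, plus strand): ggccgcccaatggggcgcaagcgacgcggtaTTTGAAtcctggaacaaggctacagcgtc
KIF4A (chrX:70290044-70290103, plus strand): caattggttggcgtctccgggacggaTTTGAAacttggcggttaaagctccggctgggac
KIF11 (chr10:92593070-92593129, plus strand): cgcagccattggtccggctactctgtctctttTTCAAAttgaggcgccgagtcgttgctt
CDCA8 (chr1:37692456-37692515, plus strand): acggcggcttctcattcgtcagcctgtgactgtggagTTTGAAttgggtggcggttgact
MKI67 (chr10:128126424-128126483, minus strand): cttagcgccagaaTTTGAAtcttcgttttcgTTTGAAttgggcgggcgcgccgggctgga
The match of PLK1, CCNB2 and MKI67 began at the same distance, 29 bases before the start. Over all windows, 0 of the CHR matches overlapped a match of another searched motif, and 13 of 1128 matches of TGATGNAA, 7 of 1161 of TCACNCCA and 10 of 2450 of CACGTG did so.

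**Figure D2:**
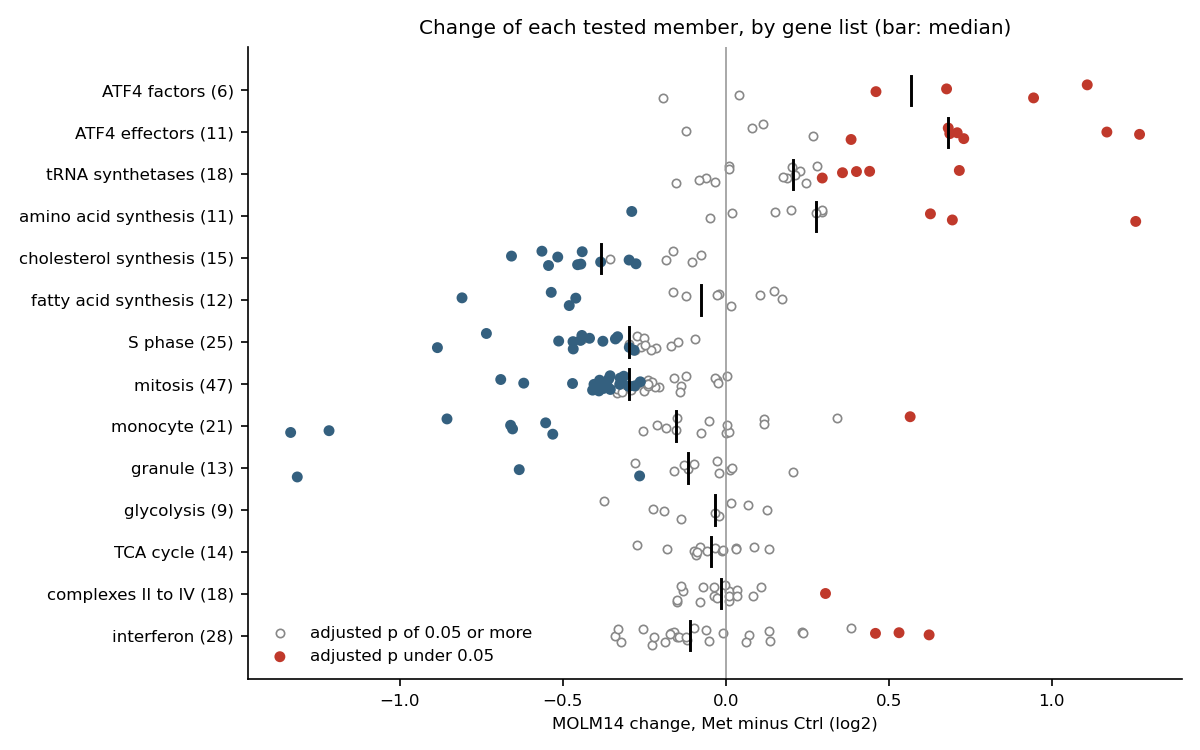
Change of each tested member in MOLM14 (log2, Met minus Ctrl, horizontal axis) for 14 gene lists, with the number tested in parentheses and a bar at the list median. Filled points had an adjusted p under 0.05, red for rises and blue for falls. The medians of the ATF4 lists lie to the right of 0, those of sterol synthesis, S phase and mitosis to the left, and those of glycolysis, the tricarboxylic acid cycle and complexes II to IV near 0.

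Several genes of myeloid maturation fell. Of 21 tested monocyte and differentiation genes 7 fell and 1 rose. MPO, the peroxidase of azurophil granules, counted with the granule genes, had 7.68, 7.42 and 7.76 in Met, against 8.92, 8.96 and 8.92 in Ctrl, and fell by 1.32 ± 0.09 (adjusted p = 2.8e-09). MNDA, a nuclear antigen of myeloid cells, had 5.65, 5.64 and 5.67 in Met, against 6.81, 6.74 and 7.06 in Ctrl, and fell by 1.22 ± 0.10. VNN1, a pantetheinase of monocytes, had 3.24, 3.29 and 3.11 in Met, against 4.38, 4.59 and 4.67 in Ctrl. Its Met values lay under the floor, where changes are compressed.

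Receptors and secreted proteins of monocytes fell as well. The chemokine receptor gene CCR2 had 5.29, 5.37 and 5.35 in Met, against 6.19, 6.36 and 6.03 in Ctrl, and fell by 0.86 ± 0.10. CSF1R, the receptor for macrophage colony-stimulating factor, had 5.41, 5.37 and 5.21 in Met, against 6.11, 5.97 and 5.89 in Ctrl. S100A8, a calcium-binding protein of phagocytes, fell by 0.65 ± 0.11 and the fractalkine receptor gene CX3CR1 by 0.53 ± 0.09. The member that rose was TLR2, a receptor for bacterial lipoproteins, with 7.16, 7.09 and 7.16 in Met, against 6.56, 6.42 and 6.74 in Ctrl. ANXA1, an annexin of phagocytes outside the list, had 5.15, 5.03 and 4.94 in Met, against 5.99, 6.16 and 6.14 in Ctrl.

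Most granule and lineage genes were not called. Of 13 tested granule genes, MPO, PRTN3 (-0.26 ± 0.07) and EPX (-0.63 ± 0.15) fell and 0 rose, but without Ctrl array B or without Met array A the MPO call alone was left, and the PRTN3 call was lost without any 1 of 5 of the 6 arrays. EPX averaged 3.39 in Met and 4.02 in Ctrl, the first under the floor and the second just under it. It passed the filter through HL60, with means of 5.26 in Met and 6.55 in Ctrl. Cathepsin G (CTSG) had a change of -0.03 ± 0.08, azurocidin (AZU1) of -0.12 ± 0.10 and lysozyme (LYZ) of -0.13 ± 0.11. Of 15 tested progenitor genes 0 rose by limma (1 at an unadjusted p under 0.05) and NPTX2 fell by 0.45 ± 0.09, and CD34 averaged 3.44 in Met and 3.57 in Ctrl. Of 15 genes of the KMT2A fusion programme 0 were called by limma (4 at an unadjusted p under 0.05), with 13 changes above 0 and a median of 0.13, and MYB at 0.24 ± 0.10 (adjusted p = 0.19). Fewer cells of a maturation stage and less RNA per cell cannot be told apart in these bulk samples. The mean log2 values of the 8 monocyte markers measured summed to 46.7 in Met and 49.0 in Ctrl. Those of 10 granulocyte markers summed to 64.5 in Met and 66.7 in Ctrl, and those of 6 progenitor markers to 22.5 in both. These are sums of log2 values that include markers under the floor, so they do not measure total RNA.

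Signalling genes changed singly. IL31RA, a chain of the interleukin-31 receptor, had 6.35, 6.32 and 6.39 in Met, against 5.17, 4.99 and 5.51 in Ctrl, and rose by 1.13 ± 0.11. It was 1 of 13 cytokine receptor genes tested, of which IL7R fell by 0.42 ± 0.11, a call lost without any 1 of the 6 arrays. Among 21 targets of FLT3 and STAT5, the feedback genes SPRY2 (0.40 ± 0.10), ETV5 (0.38 ± 0.11) and DUSP6 (0.36 ± 0.09) rose, the kinase gene PIM2 (-0.37 ± 0.10) and the suppressor gene SOCS1 (-0.59 ± 0.09) fell, and PIM1 and SOCS2 had changes of 0.13 and 0.12 that did not pass. These rises were unstable, since 1 of the 21 rose without Ctrl array A, Ctrl array B, Met array A or Met array B and 0 without Met array C. The ETV5 call was lost without any 1 of 5 of the 6 arrays and that of PIM2 without any 1 of 4. IRF1, a factor of interferon signalling, had 6.29, 6.34 and 6.25 in Met, against 5.67, 5.59 and 5.74 in Ctrl. With it XAF1 (0.46 ± 0.08) and IFIT5 (0.53 ± 0.14, lost without any 1 of 4 of the 6 arrays) rose, while 25 of the 28 interferon-induced genes tested were not called and their median change was -0.11.

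Among immune ligands, chaperones and death genes 1 or 2 members a list were called, against 5.06% of all genes. Beside ULBP1, the ligand gene PVR rose by 0.45 ± 0.09, and ULBP3 had a change of -0.44 ± 0.15 (adjusted p = 0.094). The proapoptotic BH3 gene PMAIP1 rose by 0.51 ± 0.12 (lost without Ctrl array C or Met array A), alone among 14 genes of the BCL2 family. Of 10 chaperones of the endoplasmic reticulum 2 fell, SDF2L1 (-0.67 ± 0.13) and CRELD2 (-0.33 ± 0.09), and 0 rose, and the CRELD2 call was lost without any 1 of 5 of the 6 arrays. Of 12 heat shock genes HSPH1 (-0.49 ± 0.08) and HSPA1B (-0.41 ± 0.09) fell. HSPA1B is a near-identical copy of HSPA1A (-0.31 ± 0.10), so their signals cannot be separated with certainty. Of 73 genes of the mitochondrial ribosome MRPS7 (-0.35 ± 0.08) and MRPS12 (-0.42 ± 0.10) fell. The HSPA1B and MRPS12 calls were lost without Ctrl array A or Met array B, and that of MRPS7 without Met array A. Of 13 tested hypoxia genes VEGFA rose and BNIP3 and BNIP3L fell, and of 13 AMPK and mTORC1 pathway genes SESN2 and DDIT4, given above, were called. Of 12 inflammatory genes the cytokine gene IL18 rose by 0.47 ± 0.13, and of 9 p53 targets the kinase gene PLK2 fell by 0.32 ± 0.08. The IL18 call was lost without any 1 of 5 of the 6 arrays and that of PLK2 without any 1 of 4. Of the ribosome biogenesis, NRF2 and clock gene lists, with 24, 13 and 9 tested, 0 were called by limma, and 5, 2 and 1 reached an unadjusted p under 0.05.

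The other lines were set beside MOLM14 to ask which changes were its own. Of the 264 higher genes 155 had a positive change in all 3 other lines, and of the 274 lower genes 165 had a negative one in all 3. The median change of the higher genes was 0.42 in MOLM14, 0.40 in HL60, 0.08 in KG1a and 0.25 in U937, where the first value is set by the choice of genes. That of the lower genes was -0.42 in MOLM14, -0.31 in HL60, -0.15 in KG1a and -0.26 in U937. Each line had its own controls. The change in MOLM14 minus the mean change of HL60, KG1a and U937 was then tested gene by gene. It was called in 137 genes, with MOLM14 above the others in 46 (0.432%) and below them in 91 (0.855%), and 72 of the 137 were also called in MOLM14 alone. In 12 of the 137 every group of the 3 other lines lay under the floor, and in 35 every group of 1 or 2 lines did, so that a fall there could not show. In 41 of the 91 MOLM14 fell and lay beyond all other lines, and in 8 it rose but by less than their mean. In 19 of the 46 MOLM14 rose beyond all other lines.

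**Figure D3:**
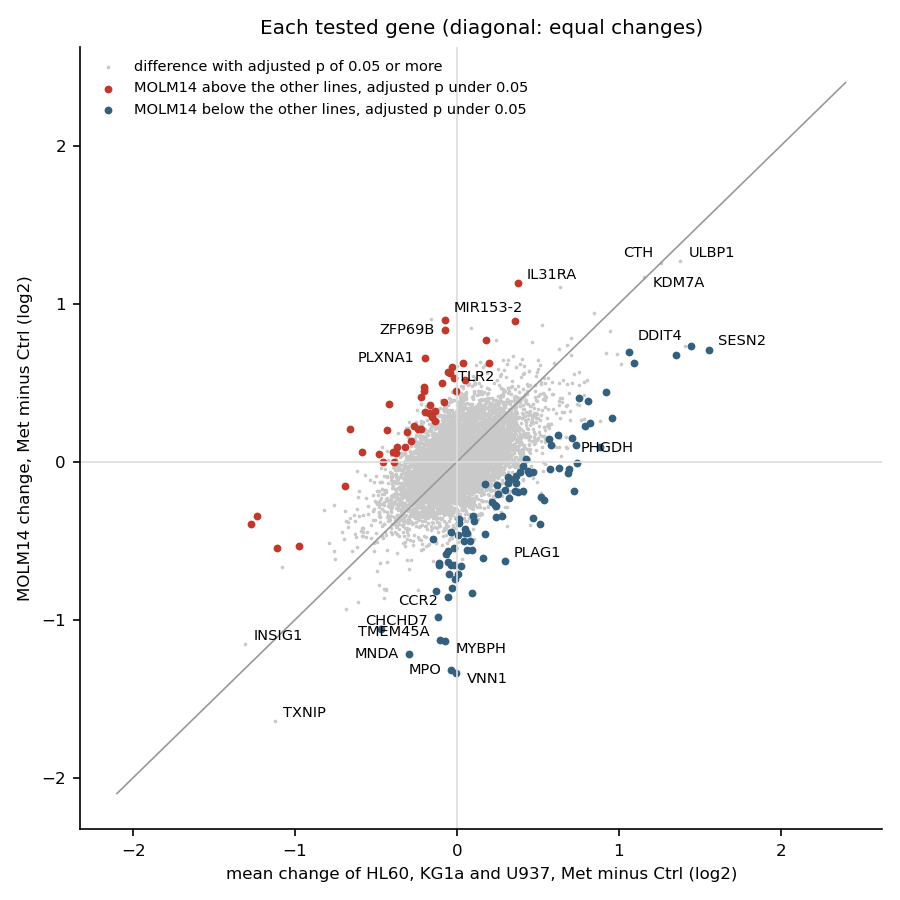
Change of each tested gene in MOLM14 (vertical axis) against the mean change of HL60, KG1a and U937 (horizontal axis), both log2, Met minus Ctrl. The diagonal marks equal changes, red points lie above it and blue points below it at an adjusted p under 0.05 for the difference. MPO, VNN1, MYBPH and TMEM45A lie between -1.34 and -1.13 in MOLM14 and near 0 on the horizontal axis, where VNN1, MYBPH and TMEM45A had levels under the floor in all 3 other lines and MPO in KG1a and U937, and CTH, ULBP1 and KDM7A lie on the diagonal.

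Most myeloid genes that fell in MOLM14 had little signal in the other lines, so their differences say little of how those lines responded. VNN1 averaged 3.21 in Met and 4.55 in Ctrl in MOLM14, and 3.17 to 3.28 in the groups of the other lines. It passed the filter through untreated MOLM14 cells, and a fall elsewhere could not show. MPO averaged 3.19 to 3.30 in KG1a and U937, also under the floor. HL60, the other line with MPO signal, had means of 12.53 in Met and 12.48 in Ctrl, a change of 0.04, against -1.32 in MOLM14, and these lines were not tested against each other alone. MNDA changed by -1.22 in MOLM14, against -0.64 in HL60 and -0.36 in U937, and lay under the floor in KG1a.

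CCR2 lay under the floor in HL60 and U937, and S100A8 in HL60 and KG1a, and their highest means in the remaining line were 4.27 and 4.43. In Ctrl cells CSF1R averaged 5.99 in MOLM14, against 4.12 in HL60, 4.28 in KG1a and 4.37 in U937, where the floor was 4.02. ANXA1 was well detected everywhere, with means from 6.59 to 9.38 in the other lines, and its fall was larger in MOLM14 by 0.59 (limma adjusted p = 0.0067), a call lost without KG1a. TLR2, which lay under the floor in KG1a, differed upwards by 0.62 (adjusted p = 0.045). That call was lost without HL60, without U937, with centred arrays, with no filter on low values and without any 1 of 5 of the 6 MOLM14 arrays.

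The neighbours CHCHD7, a mitochondrial intermembrane protein, and PLAG1, a zinc finger oncogene, were detected in every line and differed downwards by this test. CHCHD7 had 7.82, 7.78 and 7.90 in Met, against 8.71, 8.82 and 8.91 in Ctrl, and PLAG1 had 7.31, 7.02 and 7.40 in Met, against 7.90, 7.85 and 7.87 in Ctrl. Their changes were -0.98 and -0.63 and their differences -0.86 and -0.93, with means in the other lines from 5.60 to 7.29 and from 5.02 to 6.98. CHCHD7 changed by -0.17 in HL60, -0.11 in KG1a and -0.07 in U937. PLAG1 had positive changes there, 0.72 in HL60, 0.06 in KG1a and 0.11 in U937. The PLAG1 change was not called without Met array B. MYBPH, which overlaps CHI3L1, TMEM45A and GAS6-DT, the transcript divergent to the ligand gene GAS6, fell by 1.13, 1.13 and 0.83 in MOLM14, but every group mean of these genes in the other lines lay under the floor (3.62 to 3.98 for MYBPH and 3.36 to 3.66 for TMEM45A), where no fall could show.

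Genes detected in every line with a rise in MOLM14 that differed by this test included the semaphorin coreceptor gene PLXNA1 (0.66, difference 0.85), RITA1 (0.37, difference 0.78) and RIMBP3 (0.45, difference 0.65). The zinc finger gene ZFP69B (0.83, difference 0.90) averaged 3.90 in HL60 Met, under the floor, and 4.15 in HL60 Ctrl. Its difference was lost without Ctrl array A, Ctrl array B or Met array A. The MOLM14 rise of RIMBP3 was not called without any 1 of 5 of the 6 arrays, nor that of RITA1 without any 1 of 4. TGM5 (0.47, difference 0.67) lay under the floor in KG1a, and ZNF354B (0.60, difference 0.63) in HL60 and U937. The differences of ZFP69B, ZNF354B and RIMBP3 were not called when HL60 was left out. RITA1 has a second row on the array, with a change of 0.09 ± 0.14. The microRNA locus MIR153-2 rose by 0.90, with a mean of 4.89 in Met and one under the floor in Ctrl. It passed the filter through the Met group of MOLM14, and its means in the other lines were 2.93 to 3.08.

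For amino acid genes the difference ran the other way. PHGDH changed by 0.15 in MOLM14, against 0.67 in HL60, 0.82 in KG1a and 0.64 in U937, a difference of -0.56 (adjusted p = 0.0011), so MOLM14 lay below every other line. GARS1 (0.25 in MOLM14, against at least 0.59 elsewhere) and CARS1 (0.23, against at least 0.52 elsewhere) lay below every other line as well, with differences of -0.58 and -0.56. PSAT1 changed by 0.70 in MOLM14, against 0.89 in HL60, 1.23 in KG1a and 1.07 in U937 (difference -0.37, adjusted p = 0.019). This call was lost without KG1a, with the replicate block, and without Ctrl array A or C or Met array A, B or C. SESN2 (difference -0.85), DDIT4 (-0.71), DDIT3 (-0.68), WARS1 (-0.48), ASNS (-0.47) and AARS1 (-0.35) also passed, but none of these 6 did when HL60, whose changes were the largest, was left out, and DDIT3 lay under the floor in KG1a. CTH changed by 1.26 in MOLM14, against 2.73 in HL60, -0.29 in KG1a and 1.34 in U937, and its difference of 0.00 ± 0.15 averages lines that went opposite ways.

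In HMGCS1 and FASN MOLM14 lay within the range of the others. HMGCS1 changed by -0.54 in MOLM14, against -2.34 in HL60, 0.07 in KG1a and -1.07 in U937, and its difference of 0.57 (adjusted p = 0.012) turned to -0.04 without HL60. FASN changed by -0.54 in MOLM14, against -1.49 in HL60, -0.29 in KG1a and -1.16 in U937, and its difference of 0.44 was also not called without HL60. INSIG1 fell by 1.16 in MOLM14 with a difference of 0.15 ± 0.10 (adjusted p = 0.60), and TXNIP by 1.64 with a difference of -0.52 (adjusted p = 0.064). Of the 25 replication and 47 mitosis genes tested 0 had a difference called by limma, and 4 and 10 reached an unadjusted p under 0.05. IL31RA rose by 1.13 in MOLM14 and had a change of 1.27 in U937, -0.04 in HL60 and -0.10 in KG1a, with means under the floor in the last 2 lines, and its difference of 0.75 was not called when HL60 or KG1a was left out.

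**Figure D4:**
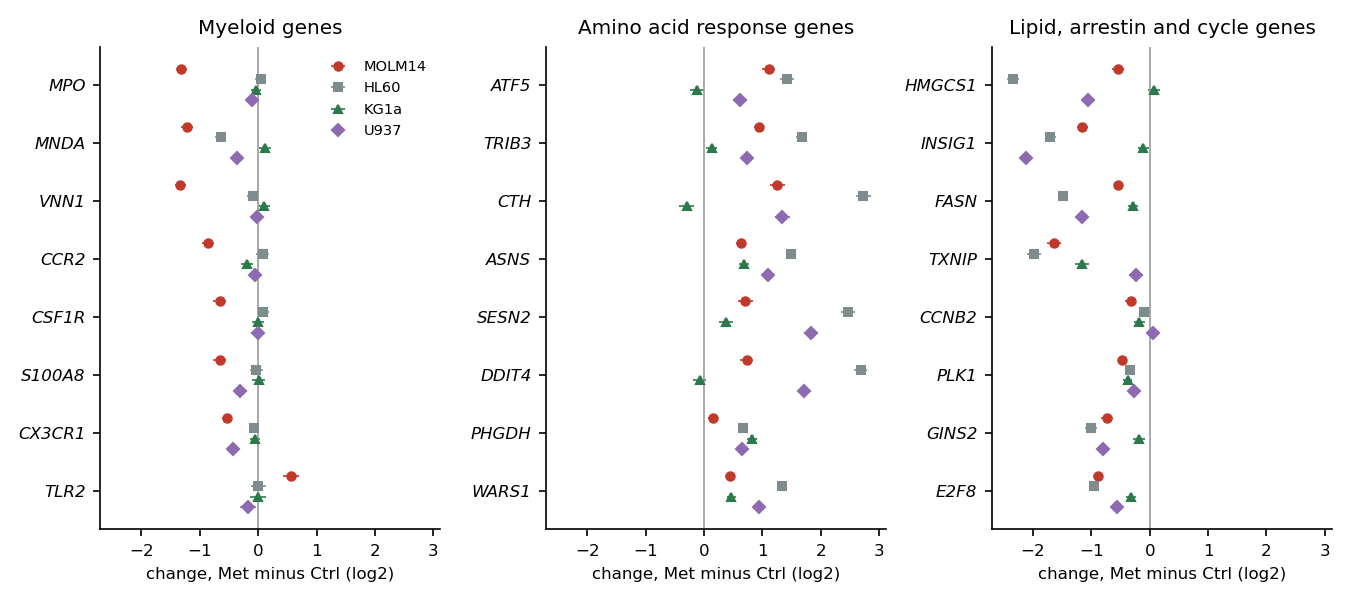
Change (log2, Met minus Ctrl, horizontal axis) of 24 genes in MOLM14, HL60, KG1a and U937, with bars of 1 SE. MOLM14 lies farthest left of the lines in the first 7 myeloid genes and farthest right in TLR2, but VNN1 in all 3 other lines, MPO in KG1a and U937, CCR2 in HL60 and U937, S100A8 and CX3CR1 in HL60 and KG1a, and MNDA and TLR2 in KG1a had levels under the floor, and in SESN2, DDIT4 and HMGCS1 the largest changes are those of HL60.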

How the data were processed

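RNA of 4 leukaemia lines (250 ng per array, GeneChip WT PLUS reagents, per the labels' protocols) was hybridized to 24 Affymetrix arrays. Values deposited by the authors are taken as log2, from their range and near-equal array medians. The submitters' processing notes name Partek. How background was corrected and arrays were normalized is not given in the sources used here. Of 53617 rows the platform annotation names 1 gene for 16098, covering 14884 genes, and the row with the highest mean over the 24 arrays stood for each gene.

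Group means (8, with 16 residual degrees of freedom) were fitted with limma 3.58.1 and empirical Bayes (R 4.3.3) to the 10641 genes kept. Contrasts were MOLM14 Met minus Ctrl, and this change minus the mean change of the other lines. Members, gene lists and named genes were chosen with earlier results of these data known. The text names the 12 largest rises and falls, up to 4 genes a list by adjusted p, the 8 largest differences each way, a fixed set and further list members. The fit was tested on simulated data. Of the called genes, 29 had a second row above the floor, which ran the opposite way in 5. Sequences are RefSeq's (GRCh38.p14). Alternatives were other normalization, scaling, filters, moderation and thresholds, fewer arrays, and, chosen after seeing the data, leaving 1 line out of the difference. Replicate letters did not pair the arrays.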

Additional observations from a re-analysis of the deposited data

Results flagged for a closer look

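The change in MOLM14 and the mean change of HL60, KG1a and U937 differed, by limma's test of the difference with an adjusted p under 0.05, in 34 named genes, and the values below are that difference on the log2 scale. Among myeloid genes, MOLM14 lay below the mean of the other lines in VNN1 (-1.33), MPO (-1.28), MNDA (-0.92), CCR2 (-0.80), CSF1R (-0.68) and ANXA1 (-0.59). VNN1 lay under the floor of 4.02 in all 3 other lines, MPO in KG1a and U937, CCR2 in HL60 and U937 and MNDA in KG1a, so no fall could show there. It also lay below that mean in MYBPH (-1.06), TMEM45A (-1.03), PLAG1 (-0.93), GAS6-DT (-0.92), CHCHD7 (-0.86), SOCS1 (-0.52) and NPTX2 (-0.41). Of these, MYBPH, TMEM45A and GAS6-DT were under the floor in all 3 other lines, and SOCS1 in HL60 and U937. Genes of the amino acid response that lay below that mean were SESN2 (-0.85), DDIT4 (-0.71), DDIT3 (-0.68), PHGDH (-0.56), WARS1 (-0.48), ASNS (-0.47), PSAT1 (-0.37) and AARS1 (-0.35), all but PHGDH called higher in MOLM14 itself.

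MOLM14 lay above the mean of the other lines, and beyond each of them, in MIR153-2 (0.97), ZFP69B (0.90), PLXNA1 (0.85), RITA1 (0.78), TGM5 (0.67), RIMBP3 (0.65), ZNF354B (0.63), TLR2 (0.62) and IRF1 (0.42). MIR153-2 passed the filter through its Met level in MOLM14 (4.89), and every other group lay under the floor. ZNF354B lay under it in HL60 and U937, and TGM5 and TLR2 in KG1a. The IRF1 difference was lost when any MOLM14 array was left out, and without KG1a or without U937, but not without HL60. That call was also lost with centred arrays, quantile normalization, the replicate block, other moderation or no filter on low values. The rises of IL31RA (0.75) and NHSL1-AS1 (0.54) differed from the mean, although that of IL31RA was 1.13 in MOLM14 and 1.27 in U937, and that of NHSL1-AS1 was 0.89 in MOLM14 and 1.18 in HL60. IL31RA lay under the floor in HL60 and KG1a, and NHSL1-AS1 in KG1a and U937. In the lipid genes HMGCS1 (0.57) and FASN (0.44) the positive difference was that of a smaller fall, and neither was called when HL60 was left out.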

How the results depend on the processing

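With a change of at least 1.5-fold also required, 91 genes were called in MOLM14 and 60 for the difference from the other lines. Leaving out 1 MOLM14 array called 307 to 457 genes, lowest without Ctrl array A, and 73 to 93 for the difference, lowest without Met array A. Without Met array B 321 were called, without Met array A or Ctrl array B 337 each, and without Met array C 341, while the difference gave 74 without Met array C, 77 without Ctrl array B, 80 without Met array B and 90 without Ctrl array A. In the difference, leaving out KG1a called 274 genes (118 of them among the 137) and leaving out HL60 turned HMGCS1 to -0.0449.

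The letters of the arrays did not pair them (deviations from the group means correlated at -0.03, 0.06 and 0.01 for A, B and C), and with the replicate block 409 genes were called in MOLM14, 381 of them among the 538, and 97 for the difference. Without 3 arrays of other lines 806 and 202 were called, and with the 6 MOLM14 arrays alone 557. Quantile normalization called 628, 254 higher and 374 lower, and centring 420. The 1.5-fold requirement was not applied to the named genes, some of which changed by less. In all other alternatives, 71 of 98 named genes called in MOLM14 stayed called and 0 reversed. Of 34 named differences 14 stayed called in them. No array signal over background was used, so falls to levels near the floor are compressed.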

Other observations

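The following genes were chosen after their values were seen. Further genes of phagocytes outside the lists fell in MOLM14. MCEMP1, a mast cell and monocyte membrane protein, fell by 0.80, the oxysterol receptor gene GPR183 by 0.78, the protease inhibitor gene SLPI by 0.74, the inhibitory receptor gene CD300A by 0.63 and the signalling regulator gene RGS18 by 0.61. IRS2, an adaptor of insulin signalling, fell by 0.82, and the atypical E2F gene E2F7, partner of E2F8, by 0.81. Among genes that rose, IFIH1, a sensor of double-stranded RNA, rose by 0.63, UBA7, which activates the modifier ISG15, by 0.62, and PCK2, the mitochondrial phosphoenolpyruvate carboxykinase, by 0.51.

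Of 503 microRNA loci tested 5 were higher and 2 lower in Met, smaller shares than the 2.48% and 2.57% of all genes. The array reads the locus, not the mature strand. MIR181B1 had 6.17, 5.80 and 5.70 in Met, against 6.85, 6.60 and 6.66 in Ctrl, and fell by 0.81 ± 0.13 (limma adjusted p = 0.00039). MIR628 had 4.49, 4.44 and 4.30 in Met, against 3.73, 3.48 and 3.82 in Ctrl, a rise of 0.74 ± 0.16, beside 1.98 in HL60, 0.67 in KG1a and 1.59 in U937. Its MOLM14 Ctrl values lay below 4.02, the floor of the filter. The major mature strand of the first and the strand from the 5′ arm of the second are shown with the seed, bases 2 to 8, in capitals.
hsa-miR-181b-5p (chr1:198858925-198858947, minus strand): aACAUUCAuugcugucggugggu
hsa-miR-628-5p (chr15:55372991-55373012, minus strand): aUGCUGACauauuuacuagagg
MIR616, which lies inside DDIT3, rose by 0.50 and DDIT3 by 0.68. The other loci that were called were MIR153-2, MIR1296 (0.77), MIR4263 (0.65) and MIR370 (-0.40).

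In 15 pairs of called genes the members overlap or lie within 2000 bases of each other in RefSeq, and 13 of the pairs moved the same way. Among them were NHSL1 (0.76) with its antisense gene NHSL1-AS1 (0.89), PCED1B (-0.65) with PCED1B-AS1 (-0.86), PCNA (-0.38) with PCNA-AS1 (-0.61), VLDLR (0.38) with VLDLR-AS1 (0.83), GAS6 (-0.39) with GAS6-DT (-0.83), FADS1 (-0.81) with FADS2 (-0.46), and MYBPH (-1.13) with CHI3L1 (-0.43). Whether the rows of such pairs read the same transcript was not tested. METTL4 (0.40) and NDC80 (-0.37), and SLC33A2 (0.50) and RECQL4 (-0.50), went opposite ways.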
